A study of Homo sapiens with 30 samples.

Results

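The mitochondrial carrier family (SLC25) was examined in RNA from cytosol and from purified TIA1 granules of human HEK293 cells. Members were taken by name, as every row of the count table whose symbol is SLC25A followed by a number, which gave 48 of 60664 genes. That rule uses no measured value, though it was set with earlier results of these data known. The cells were Flp-In T-REx HEK293 lines, an established embryonic kidney line in which a gene inserted at a fixed genomic site is turned on by tetracycline. One line carries GFP-TIA1a in its wild-type form (WT). The other carries GFP-TIA1a with the change that causes WDM, Welander distal myopathy, a muscle disease of late onset. Cytosol RNA was sequenced in 6 groups, namely each line untreated, with tetracycline, and with tetracycline followed by 0.5 mM sodium arsenite (NaAsO2) for 60 min. RNA from granule cores, pelleted at high speed and pulled down through GFP, was sequenced in 4 groups, each line with tetracycline alone and with tetracycline and arsenite. All 10 groups had 3 libraries. Every granule library comes from cells given tetracycline, so the granules have no untreated group, and the mutation is represented by 1 line. The labels do not say whether the 3 libraries of a group came from separate cultures, so the p-values below measure the spread between these libraries, which may be technical.

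Mitochondrial carriers are proteins of the inner mitochondrial membrane that move nucleotides, phosphate, carboxylates, amino acids, cofactors and metals between the cytosol and the matrix. They are encoded in the nucleus, translated on cytosolic ribosomes and brought in through the TOM complex of the outer membrane, the small TIM chaperones and the TIM22 complex. TIA1 is an RNA-binding protein that prefers U-rich stretches and condenses into stress granules when translation initiation is blocked, as it is by arsenite, and granule RNA is known for long, poorly translated transcripts.

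Because TIA1 prefers U-rich RNA, the 30 bases with the most T were taken from the 3' untranslated region of 6 members (DNA letters, GENCODE 44 transcripts on GRCh38, 5' to 3' on the gene's strand). Capitals mark runs of at least 5 T. The 6 were chosen after their values were seen, since SLC25A24, SLC25A21 and SLC25A40 are among the carriers whose granule level changed with arsenite, and SLC25A5, SLC25A3 and SLC25A1 are abundant carriers depleted from granules.
SLC25A24 (chr1:108134794-108134823, minus strand): attacttgttttccagTTTTTaTTTTTTTT
SLC25A21 (chr14:36680071-36680100, minus strand): tgttaaaatgtaaatctgttggTTTTTTTT
SLC25A40 (chr7:87835121-87835150, minus strand): tattcaTTTTTTatactttagttttatttt
SLC25A5 (chrX:119471248-119471277, plus strand): tcaattgtaTTTTTTatttcagtcactcct
SLC25A3 (chr12:98605068-98605097, plus strand): tattttaTTTTTTataTTTTTattttattt
SLC25A1 (chr22:19175859-19175888, minus strand): tgtgcctgtgtttcatgttctgtgtcacgt
Runs of at least 5 T stood in carriers of both kinds. The kinds are not opposites, because SLC25A5 and SLC25A3 also changed with arsenite in WDM granules. SLC25A24 rose in granules with arsenite, while SLC25A21 and SLC25A40 fell. SLC25A5, the carrier most depleted from granules, had 3 runs in a 3' untranslated region of 338 bases, the highest density of the 6 at 8.88 per kb. SLC25A24 had 16 runs in 2610 bases, or 6.13 per kb, and SLC25A1 had none. Over the family, 37 of 48 members (77.08%) held such a run in the 3' untranslated region of its canonical transcript, against 75.08% of 19480 protein-coding genes.

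Libraries held 5906167 to 27419145 counts, and the shallowest was replicate 1 of WT granules with tetracycline. The epithelial and embryonic kidney marker lists fitted the labelled line, with 5 of 5 and 6 of 7 genes at 1 CPM (counts per 1000000 counts of the library) or more in every group. Summed levels in single libraries reached 2.35 CPM for blood cell markers, 16.7 CPM for fibroblast markers and 23.2 CPM for skeletal muscle markers, of which TNNT1 had 19.3 ± 3.24 CPM in WT cytosol with tetracycline (SD, n = 3). Replicate 1 of WT cytosol with tetracycline stood apart from replicates 2 and 3, with a chi-square per degree of freedom of 23.9 and 24.2 between their counts, against 2.81 between those 2. In WDM granules with tetracycline, replicate 1 stood apart further, at 40.7 and 33.3 against 3.38, and its mitochondrial RNAs took 0.119% of the counts beside 0.341% and 0.420%. The transgene could not be checked, because TIA1 had 3 counts over the 30 libraries, at most 1 in any library. That count is given as listed and is not read as absence of TIA1 RNA. Carriers together took 0.285% to 0.338% of the counts in cytosol libraries and 0.154% to 0.188% in granule libraries. These are bulk libraries, so fewer cells with an RNA and less RNA per cell cannot be told apart, and all levels are shares of a library, not amounts per cell.

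Not every carrier could be measured. After a filter on low counts, 38 of the 48 were tested in cytosol, 42 in granules and 40 in the comparison of the fractions. SLC25A2, an ornithine carrier, and SLC25A51, the mitochondrial NAD+ carrier, were listed at 0 counts in all 30 libraries, and SLC25A32, a folate and FAD carrier, had 13 counts in all. In the annotation, the exons of SLC25A2 lie 100% within the span of TAF7 and those of SLC25A51 100% within the span of a gene known by identifier alone (ENSG00000255872), on the same strand. For SLC25A32 that share was 99.37% (ENSG00000285982), and 69.7% of its exon length is shared with exons of same-strand genes. Across the table, 346 of 395 protein-coding genes that lie inside a same-strand gene, as SLC25A2 and SLC25A51 do, with under 10% of their exon length in its exons had at most 30 counts over 30 libraries (87.6%), against 3207 of 16133 outside same-strand genes (19.9%). A count at or near 0 for these 3 carriers is given as listed and is not read as absence of the RNA. SLC25A31, SLC25A41, SLC25A43, SLC25A47 and SLC25A52 had 58 to 165 counts in total and were left untested in at least 1 fraction, and SLC25A18 and SLC25A34 were untested in cytosol alone.

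Per kb of annotated exon, the ADP/ATP carrier SLC25A5, the citrate carrier SLC25A1 and the ADP/ATP carrier SLC25A6 led the family in untreated WT cytosol, at 323 ± 3.16, 135 ± 11.7 and 90.9 ± 4.18 CPM per kb (SD, n = 3). The phosphate carrier SLC25A3 followed at 69.8 ± 2.26 and the oxoglutarate carrier SLC25A11 at 54.6 ± 4.41 CPM per kb. No ranges overlapped between neighbours among these 5. In granules that order changed. SLC25A21, the oxodicarboxylate carrier, stood in the first place in WT granules with tetracycline at 54.4 ± 7.00 CPM per kb, and its range of 49.7 to 62.4 overlapped that of SLC25A5 (43.5 to 54.3). With arsenite the first 4 were SLC25A5, SLC25A21, SLC25A1 and SLC25A13 in WT, between 29.1 and 33.4 CPM per kb, with overlapping ranges. These values divide all counts of a gene by its exon length, and whether reads from introns were counted was not tested. Annotated exon makes up 0.962% of the span of SLC25A21 and 1.84% of that of SLC25A13, against 52.3% for SLC25A5. The order in granules is therefore not read as an order of mature mRNA.

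More carriers were called lower than higher in granules relative to cytosol, and SLC25A5, SLC25A1, SLC25A6, SLC25A3 and SLC25A11, the leading carriers per kb in untreated WT cytosol, were among those called lower. Differences were tested with edgeR on library sizes rescaled by TMM, and called at a Benjamini-Hochberg adjusted p under 0.05 over all genes. CPM values use the plain library totals, so their ratios differ a little from the fitted folds. With tetracycline in WT, 11 of 40 carriers were called higher in granules, where 39.5% of all 18141 tested genes were, and 18 lower, where 36.2% were. With arsenite in WT the counts were 7 higher (35.0% of all genes) and 20 lower (35.5%). In WDM they were 7 higher (35.8%) and 20 lower (35.3%) with tetracycline, and 8 higher (36.3%) and 19 lower (35.7%) with arsenite. The median log2 fold change of the carriers was -0.31, -0.46, -0.39 and -0.28 in that order, beside 0.07, 0.05, 0.02 and 0.06 over all genes tested. Across these comparisons 15 carriers were called lower in all 4 (among them SLC25A1, SLC25A3, SLC25A4, SLC25A5, SLC25A6, SLC25A10, SLC25A11, SLC25A14, SLC25A15, SLC25A20, SLC25A33, SLC25A38, SLC25A39 and SLC25A46), 3 were called higher in all 4 (SLC25A21, SLC25A26 and SLC25A34), 2 were called in both directions (SLC25A24 and SLC25A40), and 2 in none (SLC25A29 and SLC25A45). The other 18 were called in 1 to 3 of the comparisons, in 1 direction each. No library is used in more than 1 of the 4. SLC25A34 and the glutamate carrier SLC25A18 stood at no more than 1.62 CPM in any group mean, so their log2 fold changes, 0.86 to 1.53 for SLC25A34 and 0.52 to 1.497 for SLC25A18, rest on few counts.

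**Figure D1:**
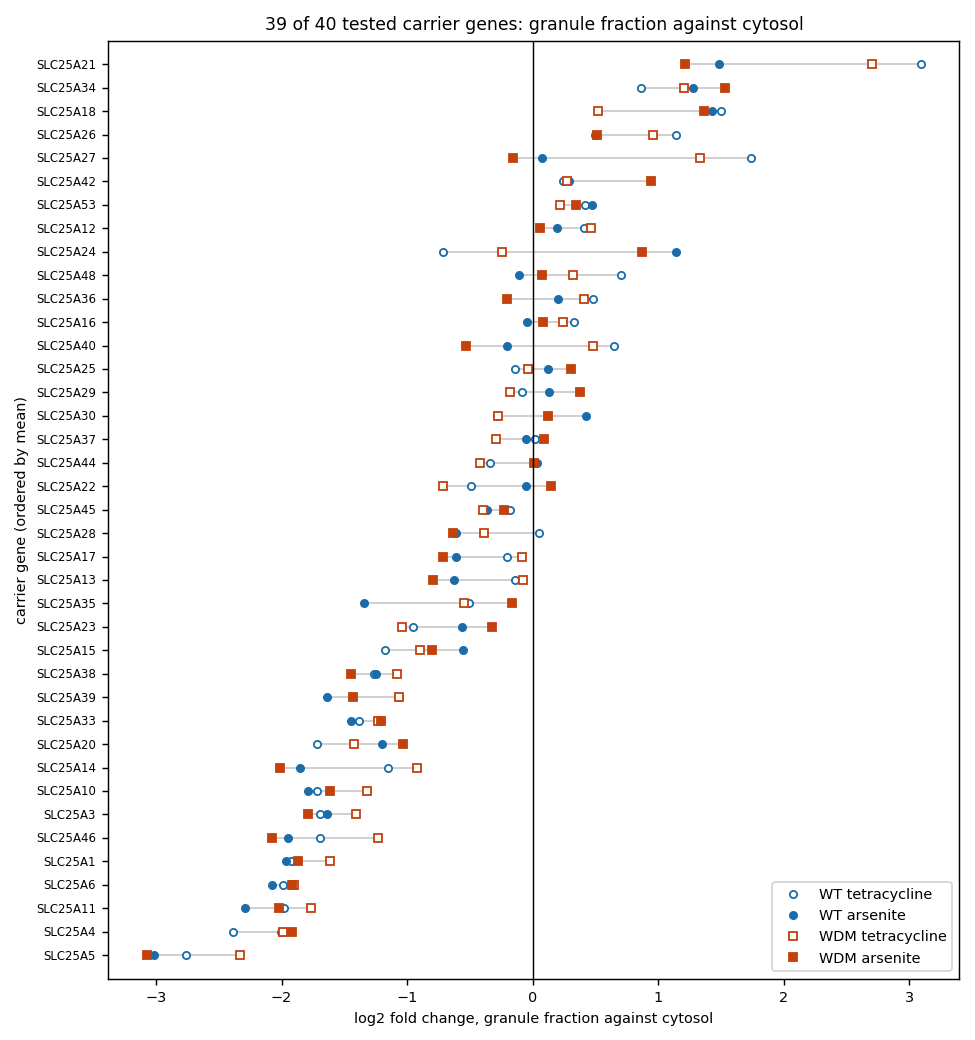
Log2 fold change of granule fraction against cytosol (x axis) for 39 of the 40 carriers tested, ordered by their mean over the 4 comparisons; open symbols are tetracycline, filled symbols arsenite, circles WT and squares WDM. SLC25A5 lies lowest, between -3.07 and -2.33, SLC25A21 highest, between 1.21 and 3.09, and SLC25A24 crosses 0 between the treatments.

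Most nucleotide and phosphate carriers were depleted. Of 10 tested, 7 were lower (36.2% of all genes) and 1 higher (39.5%) in WT with tetracycline, at a median of -1.17. SLC25A5 stood at 464, 509 and 503 CPM in WT cytosol with tetracycline and at 84.5, 67.7 and 72.7 CPM in granules, a log2 fold change of -2.76 (SE 0.203, edgeR adjusted p 1.02e-12). Every granule library lay below every cytosol library, in WDM as well, where the cytosol held 461, 517 and 458 CPM and granules 53.6, 118 and 111 CPM (log2 -2.33, SE 0.199), with the lowest value in the replicate that stood apart. With arsenite the difference was -3.02 in WT and -3.07 in WDM. The muscle and heart ADP/ATP carrier SLC25A4 and the ubiquitous SLC25A6 were lower as well, by log2 fold changes from -2.38 to -1.92 and from -2.08 to -1.90 over the 4 comparisons. The phosphate carrier SLC25A3 ranged from -1.79 to -1.40 and the pyrimidine nucleotide carrier SLC25A33 from -1.45 to -1.20. Its relative SLC25A36 did the opposite with tetracycline, at 0.48 (SE 0.153, edgeR adjusted p 0.00616) in WT and 0.41 (SE 0.153, edgeR adjusted p 0.0177) in WDM. The WT call for SLC25A36 was lost without replicate 3 of the WT granules with tetracycline, which held 103 CPM against 73.8 and 52.9 in the others, and the WDM call without replicate 2 of the WDM cytosol with tetracycline.

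Among the carboxylate carriers, SLC25A1, SLC25A10 (dicarboxylates) and SLC25A11 (oxoglutarate and malate) were lower in all 4 comparisons, from -2.29 for SLC25A11 with arsenite in WT to -1.32 for SLC25A10 with tetracycline in WDM. SLC25A21 was the exception. It stood at 39.9, 26.6 and 22.5 CPM in WT cytosol with tetracycline. In WT granules with tetracycline it stood at 236, 243 and 297 CPM, a log2 fold change of 3.09 (SE 0.218, edgeR adjusted p 8.48e-13). In WDM the granules held 254, 152 and 169 CPM against 35.1, 22.7 and 29.5 in cytosol (2.70, SE 0.216, edgeR adjusted p 1.77e-11). No other carrier had a fold this large in granules. The SLC25A21 gene (chromosome 14, 36677921 to 37172606, minus strand) spans 494686 bp, of which 0.962% is annotated exon. Of its exon length, 38.9% lies opposite other genes. The libraries were stranded, but the strand setting of the counting is not stated in the sources used here. An effect of opposite genes on its counts was not tested.

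Carriers of amino acids, cofactors and metals were called in both directions. SLC25A26, which brings S-adenosylmethionine into mitochondria, was higher in granules in all 4 comparisons, from 0.50 with arsenite to 1.14 with tetracycline, both in WT. SLC25A27 (UCP4), an uncoupling-protein-like carrier, was higher with tetracycline alone, by 1.74 (SE 0.216) in WT and 1.34 (SE 0.212) in WDM. SLC25A12 and SLC25A13 are the aspartate/glutamate carriers of the malate-aspartate shuttle. SLC25A12 was higher by 0.41 in WT and 0.46 in WDM with tetracycline, whereas SLC25A13 was lower with arsenite, at -0.62 and -0.80. SLC25A46, a protein of the outer membrane, was lower in all 4, from -2.07 to -1.23. Of the mitoferrins, the iron carriers, SLC25A28 was lower in 3 of the 4 comparisons, from -0.64 to -0.39. Its WDM tetracycline call held in 1 of 6 fits without a library and under 2 of 6 other settings, and SLC25A37 was called once, at -0.29 with tetracycline in WDM. Of the glutathione carriers, SLC25A39 was lower throughout, from -1.64 to -1.07. Its relative SLC25A40 was higher with tetracycline, by 0.65 in WT and 0.48 in WDM, and lower with arsenite in WDM, at -0.53. The WT call for SLC25A40 was lost without replicate 3 of the WT granules with tetracycline, and its WDM tetracycline call without any of 3 libraries.

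Of the carriers listed by role, the amino acid group had 2 higher and 4 lower of 9 in WT with tetracycline, the cofactor group 2 higher and 1 lower of 4, and the iron and glutathione group 1 higher and 1 lower of 4. The carboxylate group had 1 higher and 3 lower of 4, at a median of -1.82. These counts hold for that comparison, where 39.5% of all genes were higher and 36.2% lower. With arsenite in WDM the amino acid group had 1 higher and 4 lower, and the iron and glutathione group 0 higher and 3 lower. Of all genes, 36.3% were higher and 35.7% lower there. The groups are small, so no difference between roles is read from these counts.

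Other gene sets placed the family between extremes. Over all genes, 39.5% were called higher and 36.2% lower in WT with tetracycline, and 35.5% lower in WT with arsenite. In WDM with tetracycline 35.8% were called higher. The machinery that imports carriers was depleted, with 0 higher and 11 of 12 genes lower with tetracycline in WT, at a median of -1.59, and 12 of 12 with arsenite, at -1.51. Examples are the small TIM chaperones TIMM8B (log2 fold change -3.17) and TIMM10 (-2.78) and the receptor subunit TOMM22 (-2.87). Respiratory chain subunits were lower still, with 66 of 72 called lower and a median of -2.64. Other SLC transporters were balanced, with 93 of 240 called higher and 85 lower and a median of 0.02. Transporters of the mitochondrial membranes outside the family had 10 of 14 lower, among them MPC2 of the pyruvate carrier at -2.62 and the porin VDAC3 at -2.12, and 2 higher, including MCU, the pore of the calcium uniporter, at 1.19. Of the carriers that bear other names, MTCH2 was at -1.96 and UCP3, which had 0.5 CPM in cytosol and 1.62 CPM in granules, at 1.76. Of 13 mitochondrial mRNAs, 5 were higher in granules with tetracycline in WT and 12 in WDM, at medians of 1.40 and 2.37. All genes of the mitochondrial genome together, not the mRNAs alone, took 0.0989% to 0.197% of the counts in cytosol libraries of all treatments. In granule libraries of both treatments they took 0.0536% to 0.433%.

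Gene span, from the start to the end of the annotated gene, went with granule enrichment. Across the 40 tested carriers the rank correlation (Spearman's rho) of the fold change with gene span was 0.58 and 0.56 in WT, with tetracycline and arsenite, and 0.62 and 0.49 in WDM. Over 13584 protein-coding genes it was 0.60, 0.56, 0.63 and 0.51, values close to those of the carriers. For coding length the rho was 0.14, 0.04, 0.15 and 0.03 across the carriers beside 0.50, 0.49, 0.50 and 0.46 over all protein-coding genes. Carriers vary little in coding length, with a median of 942 bases and limits of 822 and 2034. The median of all protein-coding genes tested was 1441.5 bases. A rho over so narrow a range cannot be set against that of all genes. For transcript length the rho was 0.30, 0.44, 0.34 and 0.34 beside 0.47, 0.60, 0.50 and 0.52. These are correlations across genes of the same libraries, which are not independent replicates, and long genes differ from short ones in base composition and intron content as well. The lncRNAs NEAT1 and MALAT1, which stay in the nucleus, were higher in granules with tetracycline, by 4.65 and 1.85 in WT and by 3.58 and 1.23 in WDM. Of 3 nuclear lncRNAs listed, all 3 were higher with tetracycline in both lines and 2 with arsenite, and their part in the carrier result was not tested. Runs of 5 T per kb of 3' untranslated region had a rho with enrichment of 0.05, 0.12, 0.10 and -0.02 across the carriers in the same order.

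**Figure D2:**
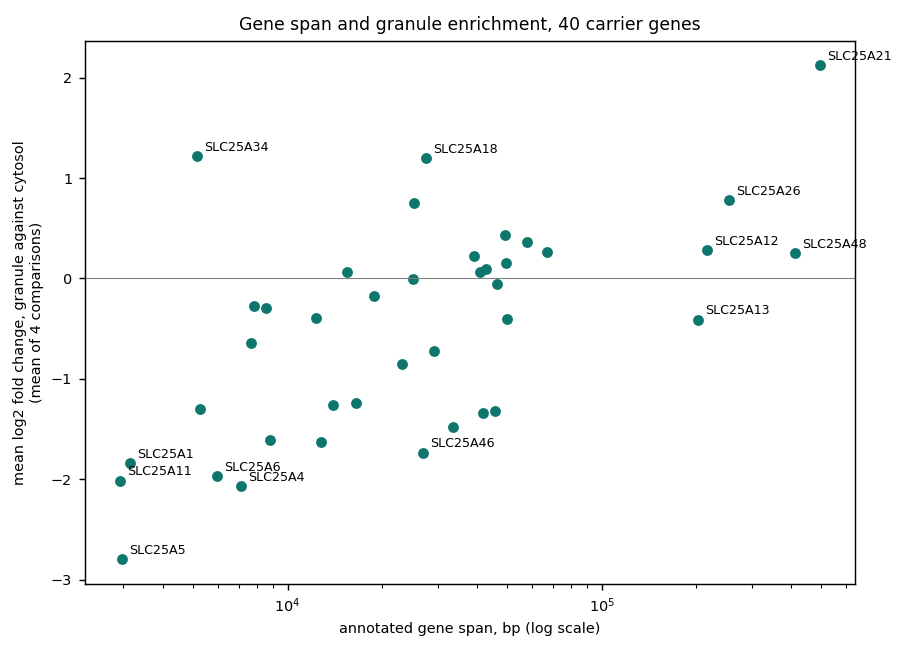
Mean log2 fold change of granule fraction against cytosol over the 4 comparisons (y axis) against annotated gene span in bp (x axis, log scale), 1 point for each of the 40 tested carriers. Short genes such as SLC25A5 (2975 bp) and SLC25A11 (2924 bp) lie near the bottom and the longest, SLC25A21 (494686 bp), lies highest.

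Arsenite raised some carriers and lowered others in the granule fraction, and in WT granules the ATP-Mg/phosphate carrier SLC25A24 had the largest change. Its RNA stood at 65.0, 43.3 and 44.2 CPM in WT granules with tetracycline and at 181, 130 and 131 CPM after arsenite. In WDM it stood at 57.2, 62.8 and 58.8 CPM before and at 94.7, 96.9 and 113 CPM after. The groups did not overlap in either line. The log2 fold change was 1.58 in WT (SE 0.187, edgeR adjusted p 2.36e-06) and 0.70 in WDM (SE 0.183, edgeR adjusted p 0.00376).

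In cytosol the same RNA fell. WT cytosol held 68.9, 85.7 and 85.4 CPM of SLC25A24 with tetracycline and 63.8, 69.1 and 68.5 CPM with arsenite, a log2 fold change of -0.39 (SE 0.0967, edgeR adjusted p 0.00586) with overlapping libraries. WDM cytosol went from 67.9, 76.0 and 67.6 CPM to 55.4, 49.0 and 54.8 CPM without overlap (-0.50, SE 0.0977, edgeR adjusted p 0.00109). Set against cytosol, SLC25A24 was depleted from WT granules with tetracycline, at -0.72 (SE 0.156, edgeR adjusted p 0.000164), and enriched with arsenite at 1.14 (SE 0.154) in WT and 0.87 (SE 0.154) in WDM. The change between the fractions, tested as an interaction, was 1.86 (SE 0.220, edgeR adjusted p 2.39e-06) in WT and 1.12 (SE 0.218, edgeR adjusted p 0.000616) in WDM, and it was called without any 1 of the 12 libraries of a line. The gene lies on chromosome 1 (108134043 to 108200849, minus strand), and 13.7% of its exon length lies opposite other genes. The WDM rise was smaller by 0.87 in log2 (SE 0.258), but that difference was not called (edgeR adjusted p 0.254).

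**Figure D3:**
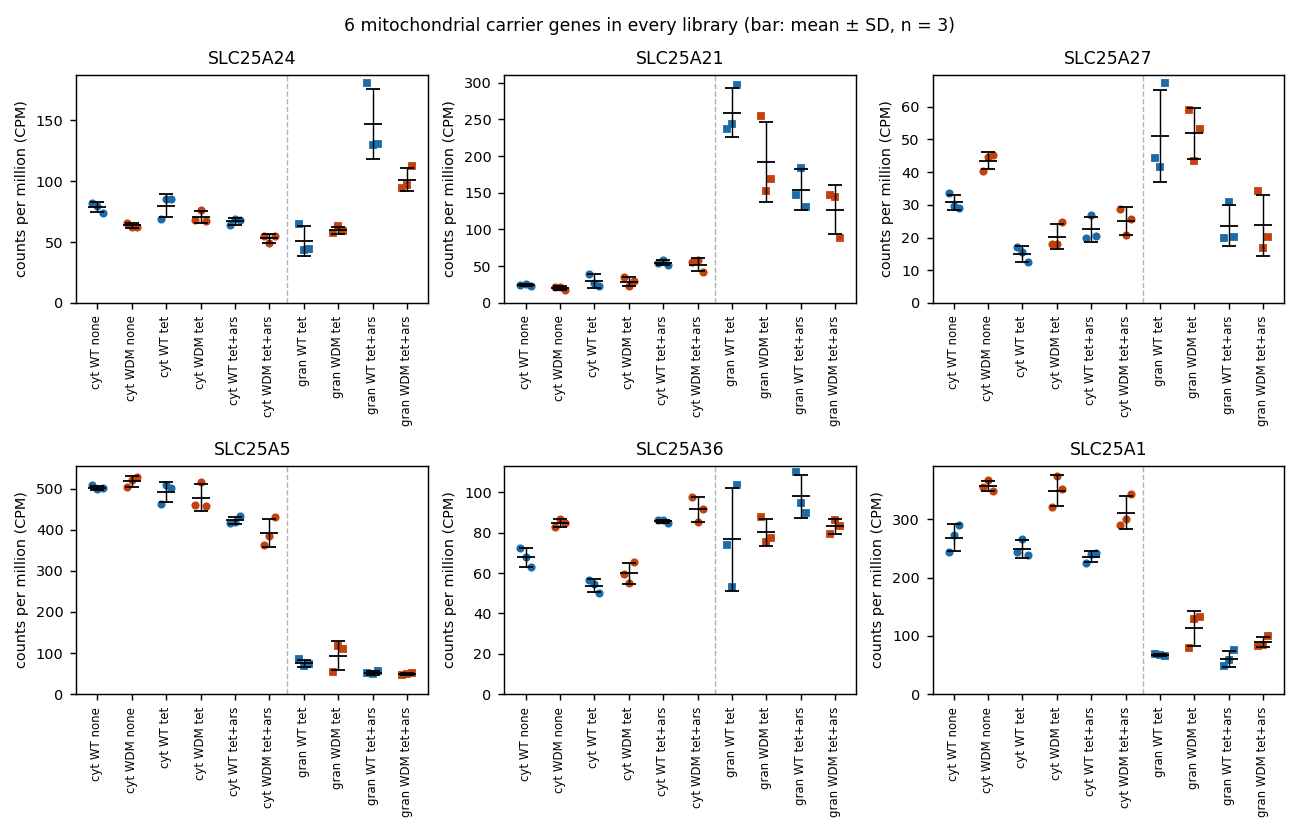
Level in CPM (y axis, from 0) of 6 carriers in each of the 30 libraries, by group (x axis; blue WT, orange WDM, circles cytosol, squares granules, black bar mean ± SD, n = 3). SLC25A24 rises with arsenite in granules, to 147 ± 29.1 in WT and 101 ± 9.76 in WDM, while SLC25A5 is high in cytosol and low in granules.

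SLC25A24 has the close relatives SLC25A23 and SLC25A25, calcium-regulated carriers of the same substrates. Where the lines are taken separately, both rose in WDM granules with arsenite. SLC25A23 went from 16.0, 19.4 and 15.4 CPM to 24.9, 30.9 and 32.5 CPM (log2 0.74, SE 0.193, edgeR adjusted p 0.00393). SLC25A25 went from 36.5, 41.5 and 39.1 CPM to 65.6, 68.6 and 60.5 CPM (log2 0.67, SE 0.158, edgeR adjusted p 0.00171). Neither was called in WT granules, where SLC25A23 had 18.6 ± 2.69 CPM before and 23.8 ± 6.04 CPM after, and SLC25A25 had 42.0 ± 6.34 and 53.3 ± 5.69 CPM (SD, n = 3). Neither was among the members called for a difference between the lines.

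In WT granules 3 of 42 tested carriers rose with arsenite, where 16.5% of 18366 genes did, and 9 fell, where 14.1% did. In WDM granules 10 rose (18.7% of all genes) and 10 fell (17.7%). The median of the carriers was -0.10 and -0.20, beside -0.03 and 0.01 over all genes. Of these, 3 rose in both lines, namely SLC25A24, SLC25A30 and SLC25A44, and 7 fell in both, namely SLC25A13, SLC25A14, SLC25A21, SLC25A27, SLC25A39, SLC25A40 and SLC25A46. That is 83.3% of the WT calls and 50% of the WDM calls, and no carrier was called in opposite directions. In fits without 1 library, the WT calls for SLC25A46 and SLC25A13 held in 1 and 2 of 6, and the WDM call for SLC25A39 in 3 of 6. SLC25A44, a branched-chain amino acid carrier, went from 20.1 ± 1.15 to 30.4 ± 4.05 CPM in WT (log2 0.60) and from 17.4 ± 1.36 to 31.6 ± 5.84 CPM in WDM (0.80). SLC25A30 rose by 0.75 in WT and 0.46 in WDM, the latter lost without any of 4 libraries and with a replicate block, and 100% of its exon length lies opposite other genes. The cofactor carrier SLC25A42 rose in WDM, from 8.12 ± 1.99 to 14.9 ± 0.522 CPM (log2 0.83).

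Of the 3 uncoupling-protein-like carriers, SLC25A27 and SLC25A14 fell furthest in the family, while SLC25A30 rose. SLC25A27 stood at 44.2, 41.7 and 67.1 CPM in WT granules with tetracycline and at 19.8, 31.0 and 20.3 CPM with arsenite (log2 -1.11, SE 0.212, edgeR adjusted p 0.00037). In WDM it went from 59.0, 43.5 and 53.1 CPM to 34.2, 16.7 and 20.2 CPM (-1.21, SE 0.212, edgeR adjusted p 9.09e-05). No library of the arsenite groups reached the lowest library without arsenite. SLC25A14 (UCP5) fell by 0.95 in WT and 1.17 in WDM, to 9.12 ± 1.18 and 7.43 ± 1.59 CPM. SLC25A21 fell from 259 ± 33.3 to 154 ± 27.7 CPM in WT (log2 -0.74, SE 0.19, edgeR adjusted p 0.00454) and from 192 ± 54.9 to 127 ± 33.2 CPM in WDM (-0.66, SE 0.189, edgeR adjusted p 0.00803). The WDM call for SLC25A21 was lost without replicate 1 of the tetracycline group or replicate 3 of the arsenite group. SLC25A5 and SLC25A3 were called in WDM, at -1.02 and -0.64, and SLC25A46 in both lines, at a fitted fold change of 0.502 in WDM and a log2 fold change of -0.52 in WT. SLC25A18 rose by 1.80 in WDM, but its highest mean in any group was 1.51 CPM, so this change rests on few counts. The remaining calls were SLC25A26 (-0.64) and SLC25A28 (-0.52) in WT, and SLC25A22 (0.79), SLC25A29 (0.53), SLC25A37 (0.39) and SLC25A17 (-0.46) in WDM. Of these, SLC25A28 was lost under 5 of 6 other settings, SLC25A29 and SLC25A37 held in 1 of 6 fits without a library, and SLC25A37 was lost with a replicate block (edgeR adjusted p 0.0540). The import machinery had 2 genes higher and 2 lower of 12 in WT granules and 0 higher and 4 lower in WDM. Respiratory chain subunits had 24 and 48 of 71 lower. Over all genes, 16.5% were higher and 14.1% lower in WT, and 18.7% and 17.7% in WDM.

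Arsenite also changed carriers in cytosol. In WT 3 of 38 tested rose, where 13.7% of 16670 genes did, and 8 fell, where 15.4% did. In WDM 2 rose (14.1%) and 8 fell (14.8%). The median of the carriers was -0.06 and -0.07, beside -0.02 and 0.00 over all genes. SLC25A21 rose in both lines, from 29.7 ± 9.13 to 54.9 ± 3.11 CPM in WT (log2 0.76, SE 0.16, edgeR adjusted p 0.0022) and from 29.1 ± 6.2 to 52.3 ± 8.48 CPM in WDM (0.77, SE 0.161, edgeR adjusted p 0.00231). SLC25A36 rose as well, from 56.6, 54.4 and 50.3 CPM to 86.2, 86.0 and 84.7 CPM in WT (0.54, SE 0.0737, edgeR adjusted p 5.51e-05) and by 0.52 in WDM, with no overlap in either line. SLC25A3, SLC25A5 and SLC25A6 fell in both lines, from -0.37 to -0.30, together with SLC25A24 and the ornithine carrier SLC25A15 (-0.43 and -0.48). In fits without 1 library, the SLC25A3 call held in 1 of 6 in WT and 4 of 6 in WDM. The SLC25A6 call held in 4 and 5 of 6, and the SLC25A5 call in 6 of 6 in both lines. With library sizes left unscaled, the median of all genes moved up by 0.13 in WT and the split of the calls became 5 higher and 4 lower, so the small falls are relative to that scaling. Respiratory chain subunits had 46 of 71 lower in WT and 52 in WDM.

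The response to arsenite differed between the fractions for 11 of 40 carriers in WT and 13 of 40 in WDM. In WT 3 of 40 carriers had a more positive response in granules than in cytosol (12.0% of all genes) and 8 a more negative one (19.4%), and in WDM 4 had a more positive (7.66%) and 9 a more negative one (16.5%). SLC25A24 was more positive in both lines, and SLC25A14, SLC25A21, SLC25A27 and SLC25A40 more negative in both. The WT call for SLC25A14 held in 4 of 12 fits without a library and was lost with DESeq2 and without the low-count filter. SLC25A21 rose in cytosol while it fell in granules, which gave -1.60 (SE 0.287, edgeR adjusted p 0.000192) in WT and -1.49 (SE 0.288, edgeR adjusted p 0.000605) in WDM. SLC25A27 gave -1.67 and -1.49. All genes tested had a median of -0.21 in WT and -0.17 in WDM, and without the low-count filter those medians were 0.00. In WT the count of 11 dropped to 5 without replicate 3 of the granules with tetracycline and to 5 without the filter on low counts.

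**Figure D4:**
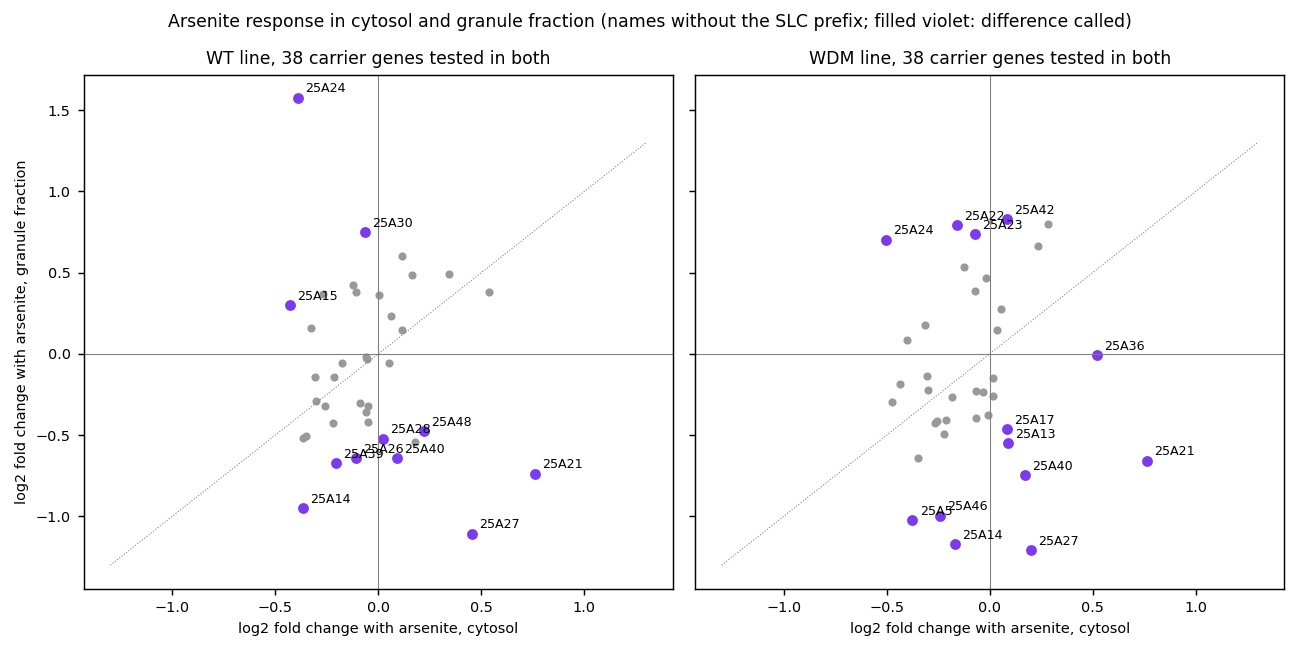
Log2 fold change with arsenite in cytosol (x axis) and in the granule fraction (y axis) for the carriers tested in both, WT left and WDM right; violet points mark a called difference between fractions and the dotted line marks equal responses. SLC25A24 lies far above the dotted line in both lines, and SLC25A21 and SLC25A27 lie far below it.

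The response to tetracycline, which turns on the transgene, was examined in cytosol. No line without the transgene was given tetracycline, so an effect of the drug and one of the transgene cannot be told apart. In WT 2 of 38 carriers rose (2.93% of all genes) and 3 fell (2.39%), and in WDM 0 rose (3.07%) and 4 fell (3.23%). SLC25A27 fell most, from 33.5, 29.8 and 29.1 CPM to 17.1, 15.5 and 12.4 CPM in WT (fitted fold change 0.500, SE 0.141 in log2, edgeR adjusted p 0.00101) and from 40.4, 44.7 and 45.3 CPM to 18.1, 18.0 and 24.7 CPM in WDM (log2 -1.06, SE 0.135, edgeR adjusted p 0.000177). The groups lay far apart in both lines, and both calls held without any 1 library and under all 6 other settings. Of its exon length, 58.2% lies opposite another gene. SLC25A40 fell by 0.52 in WT and 0.61 in WDM, and SLC25A36 by 0.29 and 0.48. The WT calls of SLC25A40 and SLC25A36 were each lost without any of 4 of the 6 libraries. SLC25A30 fell in WDM by 0.52. SLC25A44 rose in WT by 0.50 and SLC25A25 by 0.41, both lost without most single libraries.

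SLC25A36, which fell with tetracycline, rose with arsenite in both lines. It had 67.8 ± 4.71 CPM in untreated WT cytosol, 53.7 ± 3.23 with tetracycline and 85.6 ± 0.834 with arsenite. In WDM it had 84.8 ± 1.90, 59.9 ± 5.13 and 91.6 ± 6.17 CPM. Both comparisons use the same tetracycline libraries, so the fall and the rise are not independent. SLC25A27 rose with arsenite in WT cytosol (log2 0.45, edgeR adjusted p 0.0221), to 22.5 ± 3.89 CPM beside 30.8 ± 2.35 untreated (SD, n = 3), a call lost without either of 2 libraries. The line by treatment interaction for tetracycline had 0 carriers called, 0 at an unadjusted p under 0.05 and 0 with DESeq2 (0.018% of all genes called by edgeR). The smallest p among carriers was 0.0729, for SLC25A48.

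The lines were compared in cytosol under each condition. In untreated cytosol 4 of 38 were higher in WDM (4.19% of all genes) and 2 lower (5.6%). With tetracycline 1 was higher (5.8%) and 3 lower (6.84%), and with arsenite 2 were higher (4.98%) and 2 lower (5.37%). The citrate carrier SLC25A1, which exports citrate for fatty acid synthesis, was higher in WDM cytosol in all 3 conditions. Its levels were 244, 273 and 290 CPM in untreated WT and 355, 367 and 350 CPM in untreated WDM (log2 0.37, SE 0.0893, edgeR adjusted p 0.00884). With tetracycline they were 243, 267 and 238 against 322, 374 and 352 CPM (0.43), and with arsenite 225, 241 and 242 against 291, 300 and 344 CPM (0.39). Every WDM library lay above every WT library in each condition. The untreated call was lost without replicate 1 of WT and the arsenite call without replicate 3 of WDM. SLC25A37, the mitoferrin of red cell precursors that is also found elsewhere, was lower in WDM, with log2 fold changes of -0.27, -0.30 and -0.48, and with arsenite it had 60.8 ± 0.906 CPM in WT beside 43.8 ± 2.54 CPM in WDM (SD, n = 3). The call with arsenite held without any 1 library, while the untreated call was lost in 5 of 6 such fits. SLC25A24 was lower in WDM untreated (-0.34) and with arsenite (-0.35), SLC25A30 higher in the same conditions (0.47 and 0.31), and SLC25A27 (0.46) and SLC25A36 (0.29) higher when untreated. The arsenite call for SLC25A30 held in 1 of 6 fits without a library and under 1 of 6 other settings. Of the others, SLC25A24 held in 1 of 6 such fits untreated and 2 of 6 with arsenite, and SLC25A27 and SLC25A36 in 2 of 6 each. SLC25A14 (-0.42) and SLC25A46 (-0.31) were lower with tetracycline, with overlapping libraries. Each line is a separate cell line in these data, so a difference between lines and an effect of the mutation cannot be told apart. The untreated calls for SLC25A1 and SLC25A37 come from cells not given tetracycline, and the cause of those differences was not tested.

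In granules with tetracycline 1 of 42 carriers was higher in WDM (2.6% of all genes) and 1 lower (2.95%). These were the same SLC25A1, with 69.8, 66.5 and 66.3 CPM in WT beside 78.5, 129 and 132 CPM in WDM (log2 0.75, SE 0.189, edgeR adjusted p 0.0142), and SLC25A37, with 53.3 ± 3.12 and 35.7 ± 5.02 CPM (-0.59, SE 0.15, edgeR adjusted p 0.0143). Leaving out single libraries gave 0 to 4 carriers, and the SLC25A1 call was lost without any of 4 libraries. Replicate 1 of WDM, which stood apart, held the lowest of the WDM values for SLC25A1. With arsenite 0 were higher (4.11%) and 1 lower (3.84%), SLC25A24 at -0.64 (SE 0.181, edgeR adjusted p 0.0274). That call was lost without replicate 1 of WT or replicates 1 or 2 of WDM, and with unscaled library sizes. In the test of whether arsenite acted differently on granules of the lines, 4 of 42 carriers passed an unadjusted p under 0.05. Of all 18366 genes 2329 did, and 0 carriers were called by edgeR or DESeq2 (0.0% of all genes). No carrier was called for arsenite by line in cytosol (0.0%), with 0 at an unadjusted p under 0.05. For line by fraction, 0 were called by edgeR and DESeq2 with tetracycline (0.00551%) and with arsenite (0.00551%). In each, 2 of 40 carriers passed an unadjusted p under 0.05, where 929 and 1200 of 18141 genes did. The smallest p were 0.111 for SLC25A25 in cytosol, 0.0363 for SLC25A46 and 0.00578 for SLC25A35 by fraction.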

How the data were processed

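RNA of 18 cytosol and 12 granule libraries was measured by stranded total RNA sequencing after removal of ribosomal RNA. The authors deposited 1 table of whole-number read counts per gene for the 30 libraries. The submitters' processing notes name Trimmomatic, STAR, Picard, featureCounts and GRCh38. The annotation release, the strand setting and the treatment of shared reads are not given in the sources used here. Rows without a gene symbol numbered 20055 and were kept in the fits under their identifier.

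Counts were tested with edgeR 4.0.16 (R 4.3.3), using filterByExpr (minimum count 10, minimum total 15), TMM factors and robust quasi-likelihood fits, 1 for the cytosol, 1 for the granules and 1 for both fractions. In all, 15 comparisons of group pairs and 7 interactions were made, with Benjamini-Hochberg adjustment over all genes in each and a threshold of 0.05. CPM use the library total, and 3 counts equal 0.109 to 0.508 CPM. On simulated counts, 73% of genes changed by a log2 of 1 were recovered for arsenite in WT cytosol (16340 genes), 68% for arsenite in WT granules (18038 genes) and 72% for WT granules against cytosol with tetracycline (17504 genes). The alternatives tried were DESeq2 1.42.0, a replicate block, a fit of only the groups compared, RLE factors, unscaled library sizes, tests without the low-count filter, and leaving out each library. Same-numbered libraries deviated together (every correlation over 0.1) between WDM arsenite cytosol and granules (0.306 to 0.563) and between WDM granules with tetracycline and with arsenite (0.108 to 0.468, or 0.0997 to 0.454 in the fit of granules alone). The labels give the numbers no meaning. Gene features come from GENCODE 44.

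The members and the gene lists were chosen with earlier results of these data known. Named with values were the nucleotide, phosphate, citrate, iron, glutathione and NAD+ carriers, and per comparison up to 3 called members in each direction (5 between fractions) with the largest change at 5 CPM or more. Other members named with values were chosen after their values were seen. The values of 1 member are not reported here.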

Additional observations from a re-analysis of the deposited data

Results flagged for a closer look

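For the carriers below, the response to arsenite differed between granules and cytosol by edgeR's interaction test at an adjusted p under 0.05. Values are the granule log2 fold change minus the cytosol log2 fold change.

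In WT the response was more positive in granules for SLC25A24 (1.86), SLC25A30 (0.71) and SLC25A15 (0.63). It was more negative for SLC25A27 (-1.67), SLC25A21 (-1.60), SLC25A40 (-0.85), SLC25A48 (-0.81), SLC25A14 (-0.70), SLC25A28 (-0.66), SLC25A26 (-0.64) and SLC25A39 (-0.57). The calls for SLC25A15, SLC25A21, SLC25A24, SLC25A27 and SLC25A30 held without any 1 of the 12 libraries.

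In WDM the response was more positive in granules for SLC25A24 (1.12), SLC25A22 (0.86), SLC25A23 (0.72) and SLC25A42 (0.67). It was more negative for SLC25A27 (-1.49), SLC25A21 (-1.49), SLC25A14 (-1.09), SLC25A40 (-1.01), SLC25A46 (-0.85), SLC25A5 (-0.74), SLC25A13 (-0.72), SLC25A17 (-0.63) and SLC25A36 (-0.61). The call for SLC25A5 held in 2 of 12 such fits, and those for SLC25A36 and SLC25A42 in 4 of 12 each.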

How the results depend on the processing

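No named result reversed under any setting run. Of 2808 fits of named results without 1 library, 2624 kept their side of the threshold, and of 2164 under the other settings, 2077 did. A call was lost in 169 and in 70 of them. Named results that were called in neither fit count as kept, so these totals do not measure how often a call held. Fitting only the groups compared changed the carriers called from 5 to 1 for tetracycline in WT cytosol, from 11 to 5 and from 10 to 4 for arsenite in WT and WDM cytosol, from 6 to 13 between untreated lines and from 4 to 1 between lines with tetracycline. Library size alone gave 2 between lines in cytosol with tetracycline and 0 between lines in granules with arsenite, where DESeq2 gave 2. Without the low-count filter, arsenite by fraction in WT gave 5. With library size alone, the calls for arsenite in cytosol were 5 up and 4 down in WT, and for WDM 4 up and 5 down. The cause was not tested. Arsenite by line in granules has no separate fit of only the groups compared.

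Without single libraries, counts ran from 1 (WT tetracycline replicate 2) to 9 (WT tetracycline replicate 1) for tetracycline in WT cytosol, and from 4 to 5 in WDM. Arsenite in cytosol gave 6 (WT arsenite replicate 2) to 15 (WT tetracycline replicate 1) in WT and 5 (WDM tetracycline replicate 2) to 13 (WDM tetracycline replicate 1) in WDM. Lines in cytosol gave 2 (WDM untreated replicate 3) to 4 untreated, 1 (WDM tetracycline replicate 1) to 9 (WT tetracycline replicate 1) with tetracycline, and 2 to 3 with arsenite. Lines in granules gave 0 (WDM replicate 2) to 4 (WDM replicate 1) with tetracycline and 0 to 1 with arsenite. Arsenite by fraction in WT gave 5 (granule tetracycline replicate 3) to 13.

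Same-numbered replicates deviated together in all 3 pairs for 0 of 15 group pairs in the cytosol fit, 0 of 6 in the granule fit and 3 of 28 in the fit of both fractions, all 3 within WDM. A replicate block gave 7 and 6 carriers for tetracycline, 13 and 14 for arsenite in cytosol, and 10 and 18 in granules, in WT and WDM. For WDM granules against cytosol with arsenite it gave 29 in place of 27, and SLC25A23 was then called at -0.33.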
